A study of Mus musculus with 19 samples.

Results

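The blood leukocytes of DBA/2 and B6 mice were compared at 0 w, the time right after the last of a run of daily intraperitoneal injections of CAWS. CAWS is the water-soluble fraction, a complex of mannoprotein and β-glucan, that Candida albicans sheds into its culture medium, and it is used to induce arteritis in mice. The comparison was defined by the sample titles alone and held 4 RNA samples of the 18 in the series, 2 of DBA/2 and 2 of B6, on 5 of the 19 arrays, because B6 replicate 2 was, by its titles, hybridized to 2 arrays whose values were averaged. The technical replicate tags of the labels do not all match these titles. The mice of both groups were male and inbred, with no transgene or mutant allele named, and both groups had received CAWS. B6 stands for C57BL/6J, and the labels do not give the substrain of DBA/2. Each RNA came from the leukocytes of an individual mouse, held back from whole blood on a filter, so granulocytes, monocytes, lymphocytes and other cells held on that filter could all contribute. No 0 w mice without CAWS were analysed here, so that a difference fixed by strain and a difference in the early response to CAWS cannot be told apart at 0 w alone. In these bulk samples fewer cells of a type and less RNA per cell cannot be told apart either.

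Hepatocytes, the main cells of the liver, make most plasma proteins, among them albumin, fibrinogen and many complement factors, and blood leukocytes do not normally make them in quantity. Leukocyte transcripts in turn differ between inbred strains for several well known reasons. B6 and DBA/2 carry different haplotypes of the major histocompatibility complex (MHC), different arrays of the Klra (Ly49) receptor genes of natural killer (NK) cells, and different alleles of the p200 genes, a family of interferon-inducible DNA sensors. The 2 kinds of transcript were therefore described separately. A probe was given the liver pattern if it was higher in the B6 8 w samples than in the B6 samples of 2 w, 4 w and 9 w, by at least 1 on the log2 scale and with an adjusted p under 0.05, since the B6 8 w samples were the only others in which most hepatocyte genes were high. A strain difference was called held if its probe did not have the liver pattern and passed the test at 0 w and again, in the same direction, over 2 w, 4 w and 9 w.

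The bases upstream of Isg15 and Oas3 are shown as examples of the interferon-stimulated genes, which the results below find mostly higher in B6 at 0 w. Both carry the motif marked below, which not all of these genes do. They are RefSeq promoter sequences of the build GRCm38.p6, 150 bases ending just before the annotated gene start. The capitals mark GAAANNGAAA, the core of the interferon-stimulated response element, which interferon-activated factors bind. The regions are chr4:156200819-156200968 for Isg15 and chr5:120777660-120777809 for Oas3, both on the minus strand.
Isg15: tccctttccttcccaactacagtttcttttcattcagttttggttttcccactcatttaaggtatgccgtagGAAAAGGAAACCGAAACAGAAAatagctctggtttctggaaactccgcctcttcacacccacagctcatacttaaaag
Oas3: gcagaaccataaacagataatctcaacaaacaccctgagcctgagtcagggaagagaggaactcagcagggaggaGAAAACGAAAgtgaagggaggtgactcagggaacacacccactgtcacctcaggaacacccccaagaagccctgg
In Isg15 the capitals cover 3 overlapping matches. On either strand of the 250 bases before the start, GAAANNGAAA was found in 2.98% (978 of 32851) of all promoters. Among genes with a promoter entry, it was found in 5 of 11 of the interferon-stimulated genes called higher in B6, in 5 of 5 of the interferon-inducible GTPases called higher in B6 and in 0 of 36 of the hepatocyte genes called higher in B6. The share among list members not called higher in B6 was not counted, so nothing about the strain difference follows from these shares. These matches describe the letters of the windows and do not show that a factor was bound.

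Levels are log2 of the processed signal of a probe minus the 75th percentile of its array, so that 0 is a rather high level and values below about −5 were mostly within the background. Differences are DBA/2 minus B6 on that log2 scale, with the standard error (SE) and the Benjamini-Hochberg adjusted p from limma, fitted to all 18 samples, and every gene is given by its brightest probe. The share of spots well above background was 33.9 to 51.4% over the 19 arrays. Arrays of the 2 B6 replicates differed from each other (SD 0.221 and 0.249 over 11536 probes) about as much as the 2 arrays of 1 RNA did (SD 0.238), and the DBA/2 replicates had an SD of 0.316, so the p-values may reflect technical spread to a large part. Leukocyte transcripts were abundant in all 4 samples, with Lyz2, the lysozyme of myeloid cells, at 6.54 to 7.09 and Cd79b, part of the B cell receptor, at 3.60 to 4.16. No slide held arrays of both 0 w groups, so strain and slide cannot be told apart within 0 w. Without scaling the arrays, the median probe was 0.89 higher in DBA/2, and after normexp background correction it was 0.44 lower. Every direction therefore holds relative to the processing used. Normexp here also added an offset of 50 to each signal, where the median processed signal was 5.89 to 13.9 over the arrays. Its results therefore mix a change of background correction with a compression of dim probes. The median was 0.06 higher in DBA/2 with the scaling used here.

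At 0 w, 7495 of 22937 probes passed the test (32.7%), with 3952 on the side of DBA/2 (17.2%) and 3543 on that of B6 (15.4%). With normexp background correction the split was 343 and 839, and without scaling it was 13336 and 954. The counts of gene lists below are to be read beside the shares of 17.2% and 15.4%. Of the called probes, 2834 differed by at least 2-fold. The 2 samples of each strain did not overlap for 66.6% of the probes tested, so lack of overlap by itself is common here. The same comparison over 2 w, 4 w and 9 w, with 6 DBA/2 and 4 B6 samples, called 7129 of 22922 probes (31.1%). The probes called at both times numbered 4305, which is 57.4% of those called at 0 w and 60.4% of those called later, and 3882 of them kept their direction while 423 were opposite. The difference at 0 w departed from that of the later weeks, by its own test, for 3332 probes (14.5%), 1472 of them more toward DBA/2 at 0 w (6.42%) and 1860 more toward B6 (8.11%). This split was 9 and 79 with normexp and 4337 and 727 without scaling.

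The called probes were then put in classes, apart from 9 that could not be classed. The liver pattern held 531 probes (2.32% of those tested, against 3.28% with the pattern in all), of which 408 were higher in B6 and 123 higher in DBA/2. The held strain differences numbered 3733 (16.3%), 1809 higher in DBA/2 and 1924 higher in B6. Held means the same direction and not the same size. Of the 3733, 635 also passed the test of the difference between the times, which 14.5% of all tested probes passed. A further 340 probes had turned direction at the later weeks, and 2882 were called at 0 w and not later, of which 1277 passed the test of the difference between the times. The sizes differed between the classes. The median absolute difference at 0 w was 2.38 for the liver pattern, 0.87 for the held differences, 0.68 for those called at 0 w only and 0.50 for those that turned.

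**Figure D1:**
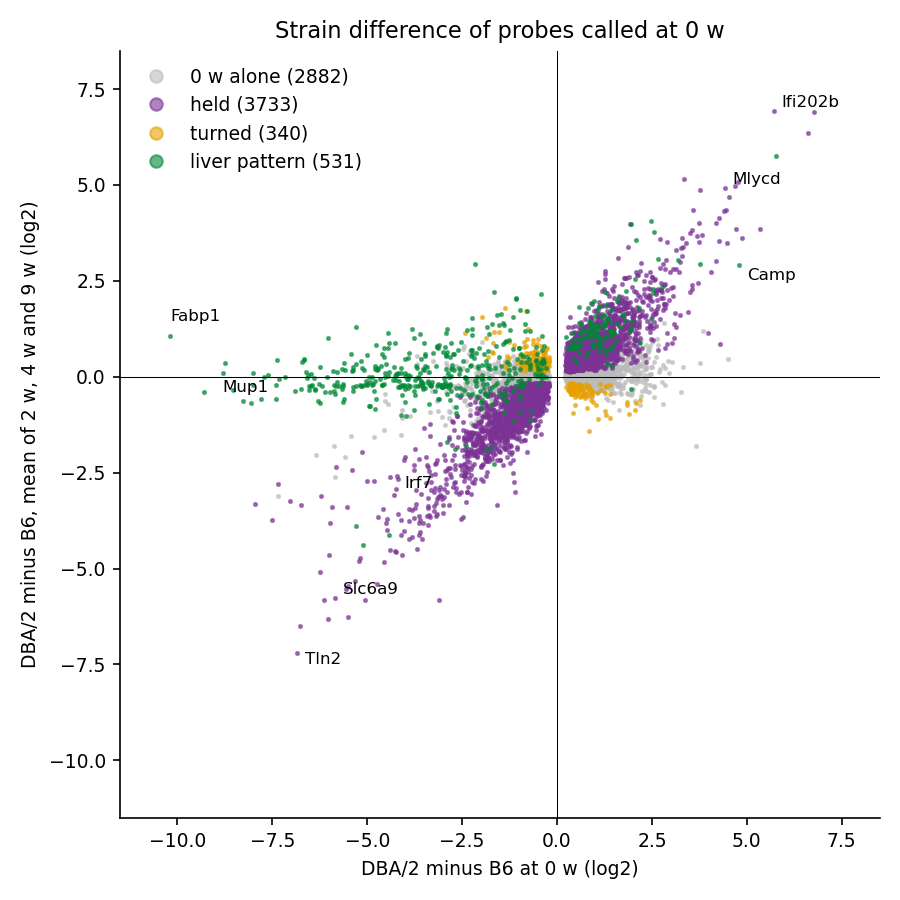
The strain difference of each probe called at 0 w (DBA/2 minus B6, log2, horizontal) against the difference over 2 w, 4 w and 9 w (vertical), coloured by class. Held probes (3733) keep their sign by definition but not always their size. The liver pattern (531) stretches to the left, where Fabp1 lies at −10.19 at 0 w and at 1.07 later.

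Hepatocyte transcripts gave very large differences, and all of those called were higher in B6. The hepatocyte lists held 56 genes of plasma proteins, enzymes and transporters, of which 55 were on the array by name and 54 passed the filter on dim probes. B6 samples alone could carry a gene past that filter, so the counts here describe the genes and test nothing about the list. Of the 54, 49 were higher in B6 and 0 in DBA/2, with a median difference of −4.60, beside 2886 higher in DBA/2 and 2674 higher in B6 among 16525 genes with a median of 0.05. Over 2 w, 4 w and 9 w the same genes had 3 calls toward DBA/2 and 1 toward B6, with a median of −0.13, and 47 of them passed the test of the difference between the times. In both B6 0 w samples, 53 of the 55 probes were well above background, against 19 in both DBA/2 0 w samples. Together the 55 probes made up 0.143 and 0.142% of the summed signal of the B6 0 w samples, 0.0138 and 0.0185% in the DBA/2 0 w samples, and 0.176 and 0.168% in the B6 8 w samples. They were between 0.0108 and 0.0444% in every other sample of the series.

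**Figure D2:**
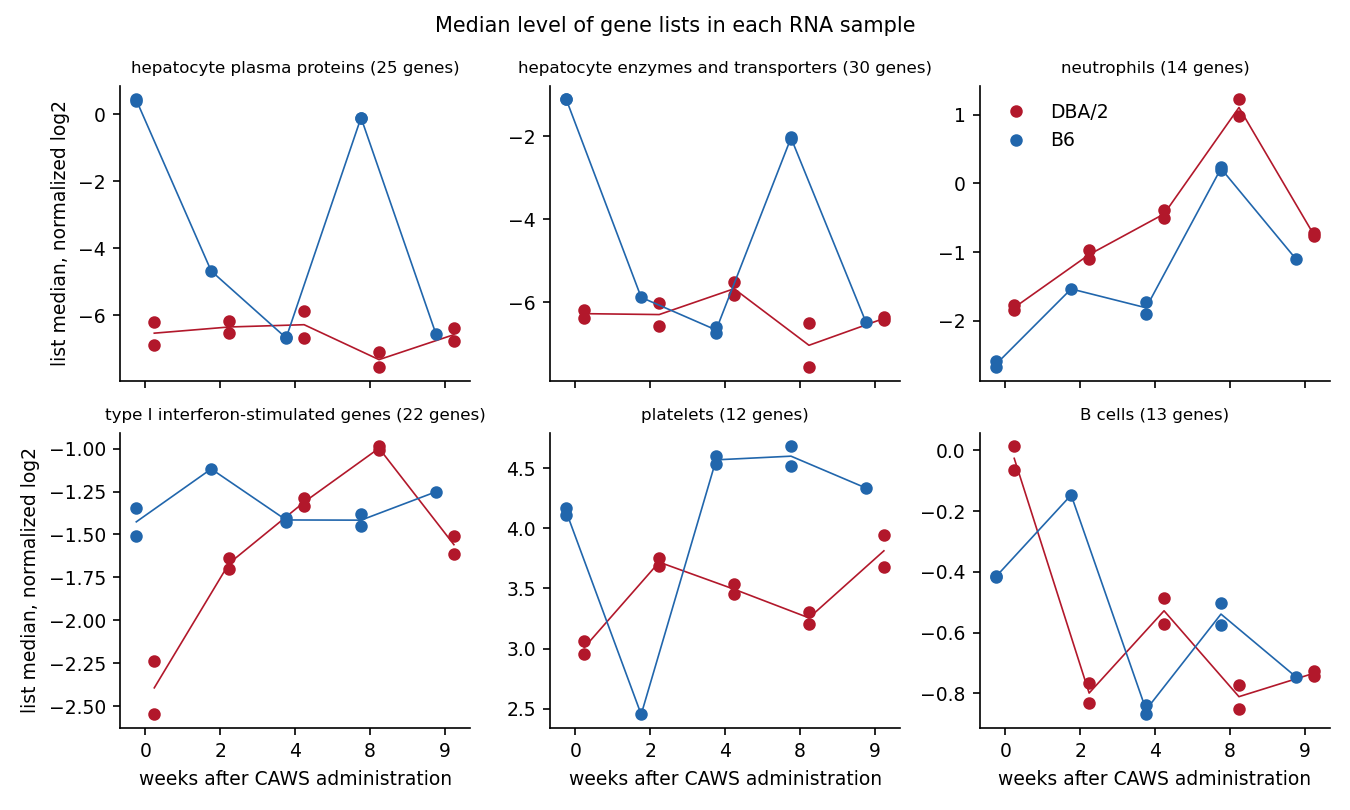
Median normalized log2 signal of 6 gene lists in each RNA sample, by weeks after CAWS, with lines through the group means; B6 had 1 sample at 2 w and 1 at 9 w. Plasma protein genes of hepatocytes stood at 0.44 and 0.40 in the B6 0 w samples and at −6.87 and −6.19 in the DBA/2 0 w samples, and the B6 8 w samples were the only others near the B6 0 w level.

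Among the plasma proteins, Alb, the gene of serum albumin (probe on chromosome 5, 91547772 to 91547831, mm8), was at −3.90 and −3.06 in the DBA/2 samples and at 3.90 and 3.87 in the B6 samples. The strains were far apart, by 7.37 on the log2 scale (SE 0.43, adjusted p 2.09e-06), or 165-fold. Rbp4, the retinol carrier of plasma, was at −7.32 and −6.87 in DBA/2 and at 2.23 and 2.18 in B6. DBA/2 was within background for Rbp4, and B6 was at least 134-fold higher. Such bounds set the bright group against the lowest signal that counted as well above background on the arrays of the dim group, or against the dim probe's own signal where that was higher. Apoa2, an apolipoprotein of high density lipoprotein, was at least 76.1-fold higher in B6, Fgg, the fibrinogen γ chain, at least 83.3-fold, and F2, prothrombin, at least 40.5-fold. None of Alb, Rbp4, Apoa2, Fgg and F2 passed the test at the later weeks, where their differences were between −0.63 (Fgg, adjusted p 0.20) and 0.44 (Alb, adjusted p 0.29). Without the B6 2 w sample the later difference of Alb was 1.39 toward DBA/2 (adjusted p 0.013).

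The enzymes and transporters behaved likewise. Fabp1, the fatty acid binding protein of hepatocytes (probe on chromosome 6, 71134491 to 71134550, mm8), was at −6.11 and −6.45 in DBA/2 and at 3.94 and 3.89 in B6. It had the largest difference of the named genes, −10.19 (SE 0.19, adjusted p 5.85e-09), and B6 was at least 438-fold higher. At the later weeks Fabp1 ranged from −6.90 to −2.51 in DBA/2 and from −6.86 to −2.91 in B6, and the difference was 1.07 toward DBA/2, or 2.16 and 1.60 without the B6 2 w and the B6 9 w sample. Uox, urate oxidase, was at least 67.6-fold higher in B6 at 0 w. The other 5 list members did not pass at 0 w. They included Serpinc1, the gene of antithrombin, with a difference of −0.62, and Slc10a1, a bile acid transporter, with 0.74, as well as Hgd, Cyp7a1 and Tat.

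Genes outside the lists shared the pattern. Mup1, a major urinary protein made by the liver, was at −3.38 and −2.79 in DBA/2 and at 5.69 and 5.75 in B6. It was above background on every array of both strains, and the difference of −8.81 (SE 0.35, adjusted p 2.12e-07) was 448-fold. Mup4 was 257-fold higher in B6 and Mup6 at least 35.6-fold, but members of this family are nearly identical in sequence, and their probes may share signal. Gsta3, a glutathione S-transferase, was at least 86.1-fold higher in B6, Ces1c, a carboxylesterase of plasma, at least 96.5-fold, and Serpina1d, an α1-antitrypsin, differed by −8.53. Of the 408 liver-pattern probes higher in B6, 353 were at least 2-fold higher and 254 were within background on both DBA/2 arrays. Later, 32 of the 408 were again higher in B6 and 83 were higher in DBA/2. The 408 probes took 0.541 and 0.548% of the signal in B6 0 w and 0.0912 and 0.0918% in DBA/2 0 w, the difference between these strains being what chose them. For the hepatocyte genes, B6 0 w and B6 8 w differed by a median of 0.60, with 43 of 54 higher at 0 w and a range of −2.07 to 1.92.

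Transcription factors that hepatocytes depend on were mostly near background. Of 11 on the array, 6 passed the filter, and 2 were called, Nr1h4, the bile acid receptor FXR, at −2.23 and Prox1 at −1.09, both toward B6. Hnf4a differed by −0.08 and did not pass. The complement genes of hepatocytes followed the liver pattern more than a strain pattern, with 12 of 18 higher in B6 at 0 w and 0 higher in DBA/2, a median of −2.39, whereas later 0 were higher in B6 and 4 in DBA/2. Cfi, a serine protease that inactivates complement, was at −7.29 and −6.85 in DBA/2 and at −1.22 and −1.19 in B6, at least 12.6-fold higher. Hc, the gene of complement C5, of which DBA/2 is known to carry a null allele, was at −5.31 and −5.63 in DBA/2 and at −0.82 and −0.83 in B6, at least 16.4-fold higher. At the later weeks Hc lay between −6.27 and −4.95 in DBA/2 and between −6.86 and −4.62 in B6, so the strains overlapped then. Cfb, factor B of the alternative pathway, was at least 15.7-fold higher in B6 at 0 w (difference −4.46) and higher in DBA/2 by 1.15 later (1.77 without the B6 2 w sample). C8g was at least 9.33-fold higher in B6 at 0 w.

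Markers of other liver cells had smaller differences. Of 13 genes of liver and splenic macrophages and sinusoidal cells, 6 were higher in B6 and 1 in DBA/2 at 0 w, with a median of −0.48, while 6 were higher in DBA/2 and 0 in B6 later. C1qc, a subunit of complement C1q made by macrophages, was at −3.88 and −3.12 in DBA/2 and at −1.16 and −1.09 in B6. It differed by −2.37 (SE 0.25, adjusted p 8.27e-05) at 0 w and by 1.21 later, or by 2.29 and 2.36 later without the B6 2 w and the B6 9 w sample. Fcna, ficolin A, went from −1.97 to 1.55 (2.69 without the B6 9 w sample) and Clec4f, a lectin of Kupffer cells, from −2.29 to 0.27. Stab2, a scavenger receptor of sinusoidal endothelium, was the exception, higher in DBA/2 by 2.34 at 0 w and by 2.08 later. Acute phase genes, some of which are also on the hepatocyte lists, gave 8 toward B6 and 2 toward DBA/2 of 14 at 0 w (median −1.12). Later 0 and 6 were called in those directions. In all, 10 of them were called at 0 w within the liver-pattern class, and Hpx and Orm1 were already counted among the hepatocyte genes. Hpx, hemopexin, was at least 22.6-fold higher in B6, Orm1 at least 2.71-fold and Saa4 at least 3.29-fold. Saa3, a serum amyloid made also by macrophages, differed by −2.17 at 0 w and by 2.94 later, where the B6 samples ranged from −6.62 to 2.11 and the difference was 5.22 without the B6 9 w sample.

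**Figure D3:**
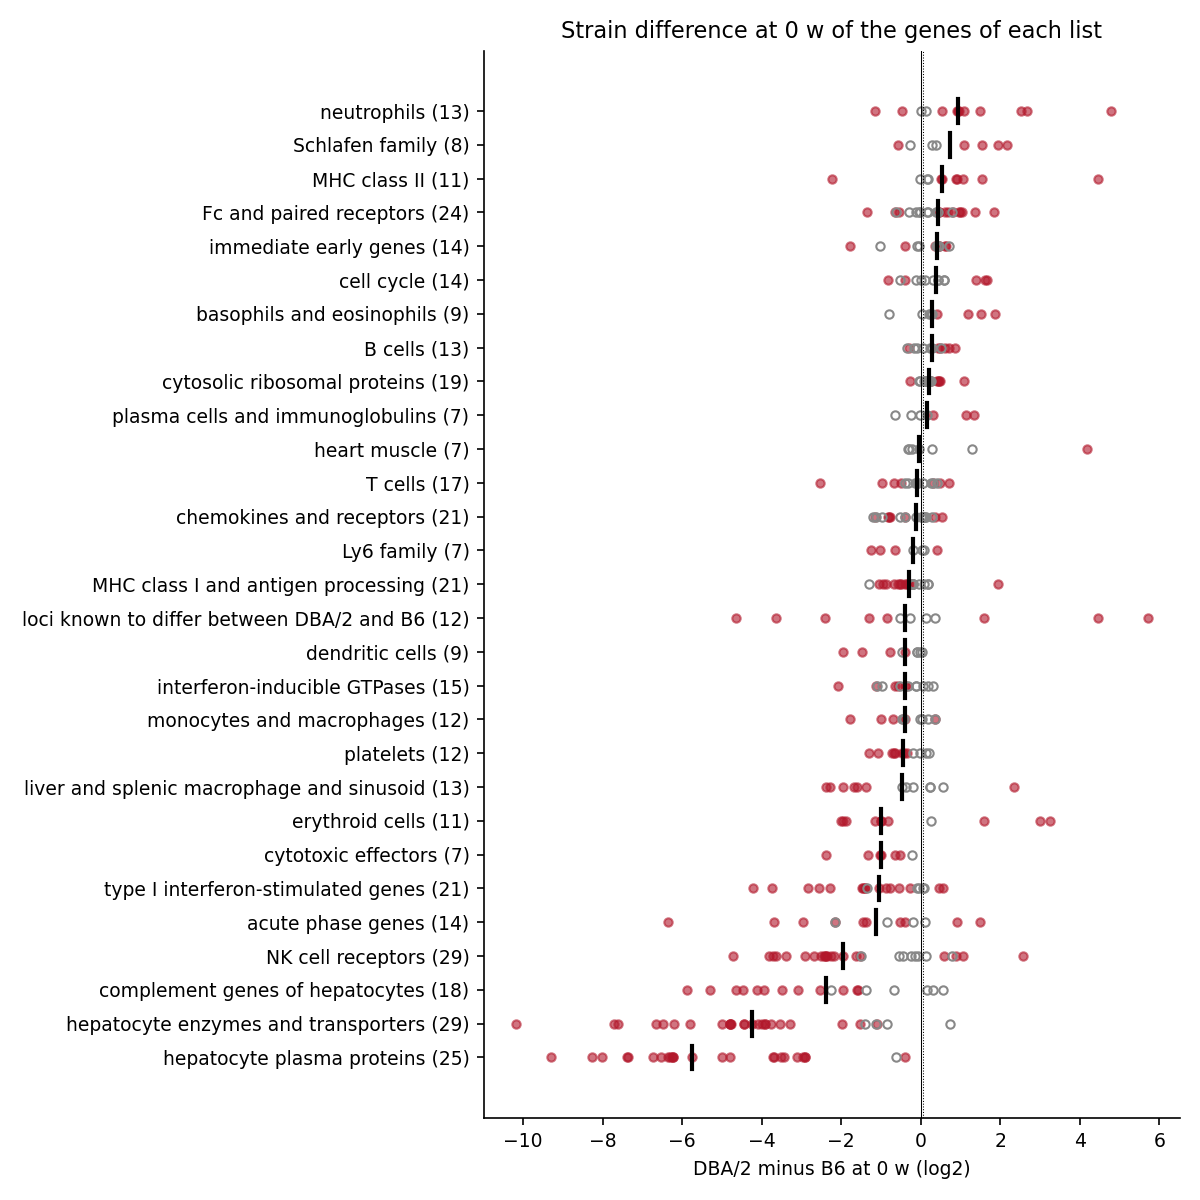
Strain difference at 0 w (DBA/2 minus B6, log2) of every tested gene of each list, with the number tested in brackets. Filled points passed at an adjusted p under 0.05 and open points did not, the bar is the median of the list and the dotted line the median of all tested genes (0.05). Lists of hepatocyte genes lie farthest to the left, with a median of −5.75 for plasma proteins and −4.24 for enzymes and transporters.

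Many of the largest held differences lay in genes that were near background in 1 of the strains. Of the 3733 probes, 1575 differed by at least 2-fold at 0 w and 465 by at least 4-fold. The genes named here were those with the largest held differences, so their sizes at 0 w are descriptions. Whether their probes bind the alleles of both strains alike was not tested. Toward DBA/2, Ttc9 was at −0.09 and −0.23 in DBA/2 and at −7.30 and −6.54 in B6, at least 24.2-fold higher, and later it kept to 0.02 to 0.56 in DBA/2 and −7.03 to −5.82 in B6. Mnd1, a gene of meiotic recombination, was at least 33.5-fold higher in DBA/2. Mlycd, malonyl-CoA decarboxylase of fatty acid metabolism, was at 3.99 and 3.81 in DBA/2 and at −0.46 and −0.57 in B6. Both strains were above background for Mlycd, which differed by 4.42 (SE 0.12, adjusted p 1.87e-08), or 21.3-fold, and by 4.93 later. Mr1, which presents vitamin B metabolites to a subset of T cells, was at least 5.03-fold higher in DBA/2. Jhy, Scg5 and Sapcd1 were at least 10.8-fold, 5.96-fold and 12.7-fold higher. Tnnt2, cardiac troponin T, was at least 4.61-fold higher in DBA/2 and again by 4.00 on the log2 scale later, and it was the single gene called among 7 tested heart muscle genes.

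Toward B6, Slc6a9, a glycine transporter also used by red cell precursors, was at 0.81 and 1.12 in DBA/2 and at 6.76 and 6.85 in B6. The difference of −5.84 (SE 0.15, adjusted p 1.8e-08), or 57.2-fold, was −5.77 over the later weeks. Tln2, talin 2, which links integrins to actin, was at −7.23 and −6.86 in DBA/2 and at −0.43 and 0.02 in B6, at least 25.3-fold higher in B6, and Muc2, a secreted mucin, at least 14-fold. Gsta1 (at least 15.6-fold) and Zfp37 (at least 17-fold) were alike. Replicates spread more for the remaining genes. Tbx20, a cardiac transcription factor, was at −0.36 in 1 B6 replicate and 1.66 in the other, and differed by −7.36 (SE 1.35) at 0 w and −2.79 later. Pigr, which carries IgA across epithelia, was at −6.90 and −3.75 in the DBA/2 samples and at −0.86 and 1.28 in the B6 samples. Its later call, and so its place among the held genes, was lost without the B6 9 w sample (adjusted p 0.055). Wnt3 differed by −6.75, Pdzd2 by −5.97 and Hoxb9 by −5.81, each with an SE of 0.96 to 0.99.

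**Figure D4:**
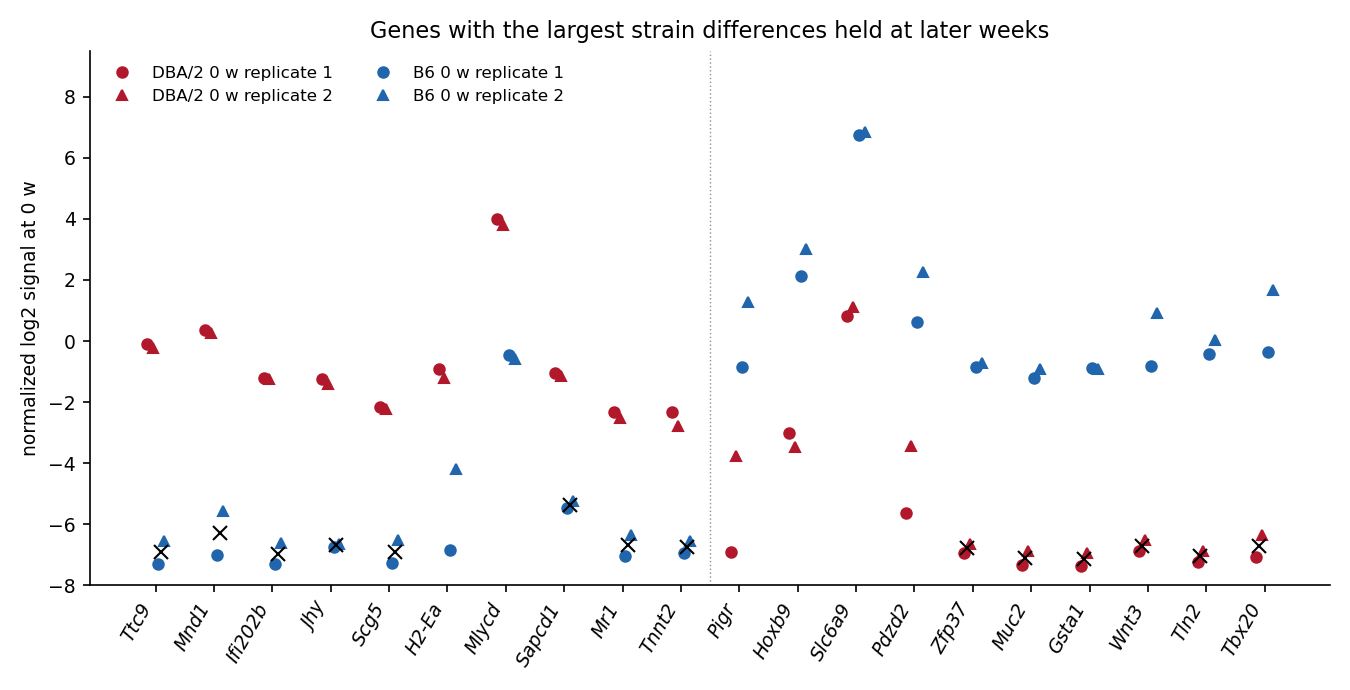
Normalized log2 signal at 0 w of the 20 genes with the largest held strain differences, 10 higher in DBA/2 and 10 higher in B6; circles are replicate 1, triangles replicate 2, and a cross marks the mean of a strain whose arrays all left the probe within background. In each gene the 4 points fall into strain pairs, and for 9 of the 10 genes higher in DBA/2 the lower strain lies below −4.

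At loci where the 2 strains are known to differ in allele or copy number, 12 genes were tested, with 3 called higher in DBA/2 and 5 higher in B6. Alad, the heme synthesis enzyme known to be duplicated in DBA/2, was at 0.33 and 0.32 in DBA/2 and −1.31 and −1.23 in B6, a difference of 1.60 (SE 0.07, adjusted p 3.67e-07). Apobec3, an antiviral deaminase with strain-specific expression, was at −4.40 and −4.42 in DBA/2 and −0.77 and −0.76 in B6, or 12.5-fold higher in B6. Myo5a, which carries the dilute coat colour mutation in DBA/2, was 0.84 lower in DBA/2, although the mean of its probes had the opposite sign (0.11). Glo1, glyoxalase 1, gave −1.30 on its brightest probe and 0.75 on another. Nnt (−0.27), Klrd1 (0.14) and Gbp2b (−0.52) were among those that did not pass, while Gpnmb and Tyrp1 were too dim to be tested.

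The MHC differed between the strains in both classes. H2-Ea, the α chain of the class II molecule I-E, which B6 is known to lack through a promoter deletion, was at −0.91 and −1.21 in DBA/2 and at −6.85 and −4.18 in B6. DBA/2 was higher by 4.45 (SE 0.90, adjusted p 0.00423), and B6 was well above background on 1 of 3 arrays. Of 11 class II genes, 7 were higher in DBA/2 and 1 in B6, with a median of 0.54, and 2 and 4 in those directions later, or 5 and 2 without the B6 2 w sample and 4 and 3 without the B6 9 w sample. H2-DMb2, which aids the loading of peptides onto class II molecules, was higher in DBA/2 by 1.06. H2-Ob, which restrains that loading, was lower in DBA/2 by 2.24. The 2 probes of H2-Aa went opposite ways (1.55 and −1.52), and whether its probes bind both alleles alike was not tested. Of 21 class I and antigen processing genes, 11 were higher in B6 and 1 in DBA/2 (median −0.29), but with normexp the median relative to all probes was 0.25, with 1 call each way. Tap1 and Tap2, the peptide transporter, were 0.96 and 0.87 lower in DBA/2, and H2-T24 was 1.95 higher.

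NK cell receptor genes fell mostly on the side of B6. Of 29 tested, 17 were higher in B6 and 4 in DBA/2 at 0 w, with a median of −1.95, and 16 and 7 later, with a median of −1.47. Under normexp, 6 and 0 were called. Klra6 was at −6.88 and −6.32 in DBA/2 and at −1.88 and −1.89 in B6, at least 7.91-fold higher, and Klra10 was likewise at least 7.88-fold higher. Klra8, the receptor Ly49H for a cytomegalovirus protein, which DBA/2 is known to lack, was at −2.51 and −2.58 in DBA/2 and −0.09 and −0.16 in B6. Its difference of −2.41 (SE 0.26, adjusted p 0.000112) was −2.51 later, yet the DBA/2 samples were above background, and probes of this family may bind other members. Klra1 differed by −3.81 and Klrb1b by −3.73. In the 1 Mb of chromosome 6 from 130000001 to 131000000 (mm8) that holds the Klra genes, 11 of 13 genes were held, all 11 higher in B6. Over all genes, 16.5% (2713 of 16393) were held. Because probes of this family may bind other members, these 11 may not be separate signals. Whether the probes bind the alleles of both strains alike was not tested. Other windows rich in held genes were chromosome 12 from 70000001 to 71000000 (14 of 24, 11 of them higher in DBA/2), chromosome 1 from 175000001 to 176000000, with the p200 family (11 of 21, 8 higher in B6), and chromosome 7 from 104000001 to 105000000, with several Trim genes (10 of 20, 9 higher in B6).

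Interferon-stimulated genes were mostly lower in DBA/2 at 0 w. Of 21 tested type I interferon-stimulated genes, 14 were higher in B6 and 2 in DBA/2, with a median of −1.04, whereas later 9 and 6 were called with a median of 0.07, and 13 passed the test of the difference between the times, all toward B6 at 0 w. With normexp 8 and 0 were called at 0 w. Irf7, the transcription factor that amplifies type I interferon, was at −3.19 and −3.36 in DBA/2 and at 0.98 and 0.90 in B6. It differed by −4.22 (SE 0.09, adjusted p 1.36e-08), or 18.6-fold, and by −2.60 later, where DBA/2 lay between −2.09 and −1.81 and B6 between 0.17 and 0.93. Isg15, a ubiquitin-like modifier whose upstream bases are shown above, was at 0.45 and 0.26 in DBA/2 and 3.17 and 3.24 in B6. Its difference was −2.85 (SE 0.09, adjusted p 6.93e-08) at 0 w and −1.57 later. The array files place this probe on chromosome 17 (mm8) and RefSeq places Isg15 on chromosome 4, so whether the probe measures this gene alone was not tested. Oas3, which makes the activator of RNase L and whose upstream bases are also shown, was at −4.08 and −6.54 in DBA/2 and at −1.56 and −1.59 in B6, a difference of −3.74 (SE 0.59). The DBA/2 replicates of Oas3 spread more than their B6 counterparts, and 1 of them was within background. Oasl2 differed by −2.56 at 0 w and −0.52 later, or −0.32 without the B6 2 w sample.

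The interferon-inducible GTPases, which attack intracellular pathogens, had 6 of 15 higher in B6 and 0 in DBA/2 (median −0.40), against 2 and 4 later (1 and 6 without the B6 2 w sample), and with normexp 1 and 0 at 0 w. Tgtp1 differed by −1.13 at 0 w and −0.62 later. Igtp, by contrast, went from −0.66 to 0.27, although its later value was not called without the B6 2 w sample. The p200 genes split by strain. Ifi202b, at −1.22 and −1.25 in DBA/2 and −7.31 and −6.60 in B6, was at least 11.5-fold higher in DBA/2, and it differed by 6.93 later. Ifi205 was higher in B6 by 2.31 on the log2 scale and Ifi209 by 0.37. The 3 probes of Ifi203 did not go the same way, with 0.56 on the brightest and −6.14 on another.

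**Figure D5:**
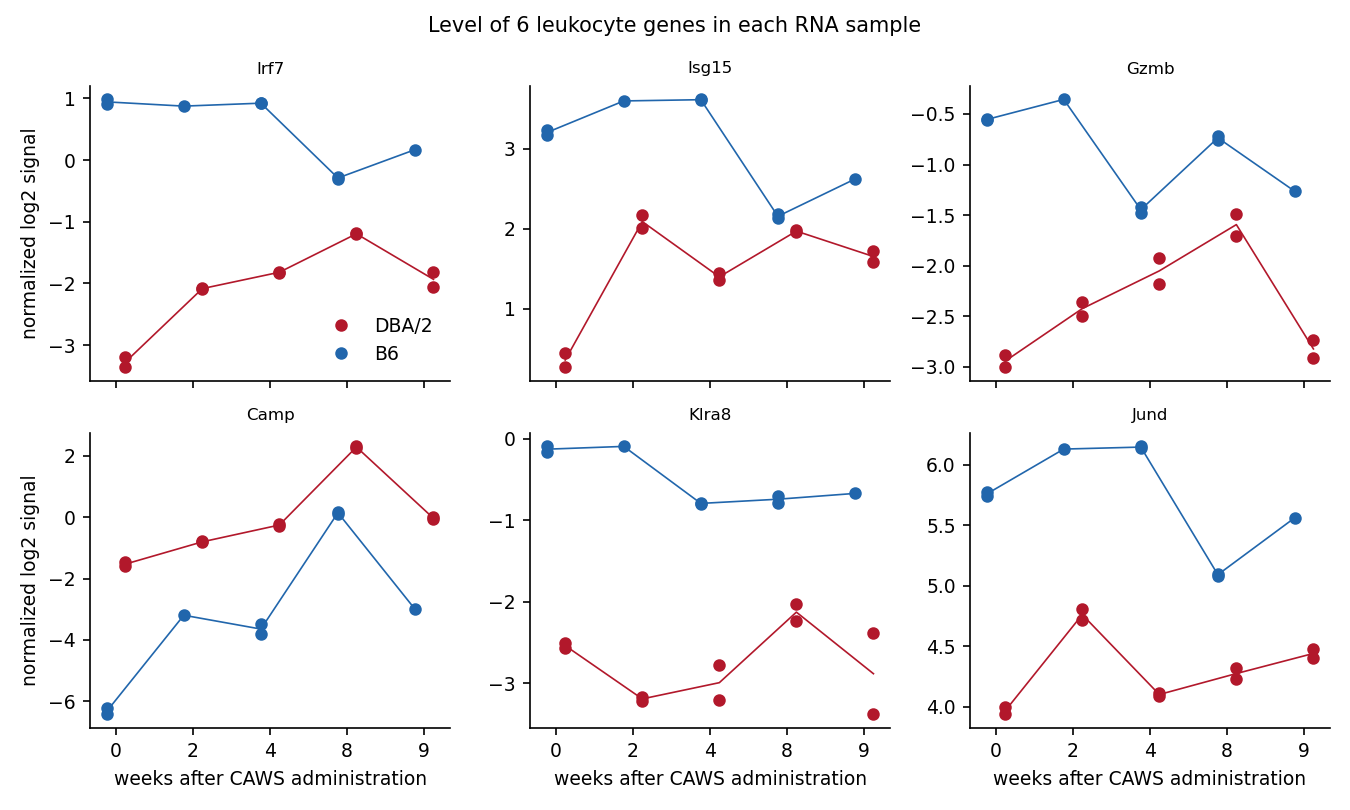
Normalized log2 signal of 6 leukocyte genes in each RNA sample by weeks after CAWS, with lines through the group means (1 B6 sample at 2 w and at 9 w). Irf7 and Isg15 lie farther apart at 0 w than over 2 w, 4 w and 9 w, Klra8 differs by −2.41 at 0 w and −2.51 later and Jund by −1.79 and −1.51, and Camp is higher in DBA/2 at 0 w, where B6 was within background.

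Cytotoxic effector genes were lower in DBA/2 at 0 w, with 6 of 7 called toward B6 and 0 toward DBA/2, and 1 and 2 later. The median was −0.998. All 7 passed the test of the difference between the times. Gzmb, granzyme B of killer cells, was at −2.88 and −3.01 in DBA/2 and −0.55 and −0.56 in B6, and differed by −2.39 (SE 0.12, adjusted p 6.77e-07) at 0 w and −1.41 later. Prf1, perforin, differed by −1.34 and Nkg7 by −1.04, while Ctsw was at −0.86 and −0.82 in DBA/2 and at 0.14 and 0.17 in B6. For these 3 genes the later differences of −0.29 to −0.13 did not pass, although Prf1 passed at −0.39 without the B6 9 w sample.

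Neutrophil genes were higher in DBA/2, with 9 of 13 called toward DBA/2 and 2 toward B6 (median 0.95), and 10 and 1 later. With normexp 3 and 1 were called. Camp, the cathelicidin of neutrophil granules, was at −1.59 and −1.48 in DBA/2 and at −6.43 and −6.22 in B6, at least 9.35-fold higher in DBA/2, and was higher by 2.91 later. Ngp, another granule protein, was at least 2.3-fold higher, and Ltf, lactoferrin, differed by 2.52 (SE 0.26, adjusted p 8.64e-05). Lcn2 differed by 1.49, but it was within background on every 0 w array of both strains, and with normexp its sign turned (−0.55), as did that of Ngp (−0.0090). Of the 13 genes 10 also rose in B6 at 8 w and so fell in the class of the liver pattern, which thus held neutrophil genes higher in DBA/2 as well as hepatocyte genes higher in B6. Of the 123 liver-pattern probes higher in DBA/2, 117 were also higher in DBA/2 later.

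Fc and paired receptors leaned to DBA/2, 11 of 24 against 3 (median 0.43), and 17 against 1 later, while normexp called 2 against 1. Clec7a, the β-glucan receptor Dectin-1, was at 1.12 and 1.08 in DBA/2 and −0.27 and −0.25 in B6, a difference of 1.36 (SE 0.08, adjusted p 1.68e-06), and 1.51 later. Fcgr3, a receptor for IgG, was 0.98 higher in DBA/2 and 1.71 later. Fcgr1, the high affinity IgG receptor, was lower in DBA/2 by 1.36 at 0 w and differed by −0.05 later, or by 0.71 (adjusted p 0.00011) without the B6 2 w sample. Of 8 Schlafen genes, 4 were higher in DBA/2 and 1 in B6 (median 0.74), with Slfn4 at 2.17, Slfn10-ps at 1.09, Slfn3 at 1.95 and Slfn8 at 1.54. Both Slfn3 (−0.27) and Slfn8 (−0.35) turned sign with normexp. Monocyte and macrophage genes had 5 of 12 toward B6 and 1 toward DBA/2 (median −0.41, and 0.00 relative to all probes with normexp). Csf1r, the receptor for the growth factor CSF1, differed by −1.01 and Cd68 by −1.78 at 0 w. Adgre1, the F4/80 antigen, went from −0.70 to 0.21 later, or to 0.73 and 0.47 without the B6 2 w and the B6 9 w sample.

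T cell genes did not move together, with 3 of 17 higher in DBA/2 and 4 in B6 (median −0.10, and 0.20 relative to all probes with normexp). Cd8b1, a subunit of the CD8 coreceptor, was at 0.53 in both DBA/2 samples and at 3.03 and 3.08 in B6, a difference of −2.53 (SE 0.08, adjusted p 5.49e-08) at 0 w and −3.00 later, while its other probe gave 0.25 and did not pass. Cd3g was 0.71 higher in DBA/2, and Il7r and Zap70 were 0.67 and 0.99 lower. Of 13 B cell genes, 5 were higher in DBA/2 and 1 in B6 (median 0.29), against 1 and 9 later (1 and 3 without the B6 2 w sample). Cd79b was higher in DBA/2 by 0.48 at 0 w and lower by 0.41 later, a later call lost without the B6 2 w sample, and Cd22 was higher by 0.85 at 0 w and 0.26 later (0.45 without that sample). Jchain and Mzb1 of plasma cells were 1.34 and 1.14 higher in DBA/2.

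Platelet genes were lower in DBA/2, with 8 of 12 called toward B6 and 0 toward DBA/2 (median −0.45), although the median relative to all probes was 0.14 with normexp. Their median level was 2.95 and 3.06 in the DBA/2 0 w samples and 4.17 and 4.11 in the B6 0 w samples. Over the later weeks 8 were higher in DBA/2 and 1 in B6, which rested on the single B6 2 w sample, at 2.45, and without it 1 and 8 were called and the number that differed between the times fell from 12 to 1. Itgb3 and Itga2b, the chains of the fibrinogen receptor, differed by −1.31 and −1.09 at 0 w. Erythroid genes had 7 of 11 toward B6 and 3 toward DBA/2 (median −0.99) and the same counts later. Bpgm, which makes the red cell metabolite 2,3-bisphosphoglycerate, was at 5.82 and 5.78 in DBA/2 and at 7.80 and 7.72 in B6, a difference of −1.96 (SE 0.09, adjusted p 5.18e-07). Tfrc, the transferrin receptor of immature red cells and dividing cells, went the other way, at −0.59 and −0.70 in DBA/2 and −3.81 and −3.97 in B6, a difference of 3.24 (SE 0.10, adjusted p 5.58e-08), and 1.62 later. Klf1, a transcription factor of red cell precursors, was higher in DBA/2 by 3.00.

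Some genes were called at 0 w and not at the later weeks, without the liver pattern. Enam, an enamel protein, was at −4.22 and −1.64 in DBA/2 and −7.37 and −5.79 in B6, a difference of 3.65 with an SE of 1.23 that shows its spread. Grhl2 (3.04), Pde4d, a phosphodiesterase of cyclic AMP (2.92), Chst1 (2.85) and Vstm2l (2.79) were also within background on all B6 arrays. Grhl2 and Vstm2l turned sign with normexp (−0.094 and −0.26). Toward B6, Hsd3b5, a steroid enzyme of male mouse liver, was at −7.22 and −6.90 in DBA/2 and at −3.52 and −3.77 in B6, at least 2.32-fold higher. Akr1c14, also of steroid metabolism, was at least 2.84-fold higher in B6, Ccl24, an eosinophil chemokine, at least 3.24-fold, Cdc42ep1 at least 3.21-fold and Efcab6 at least 4.93-fold. Later calls appeared for Ccl24 without the B6 2 w sample (1.51) and for Cdc42ep1 without the B6 9 w sample (−1.70).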

How the data were processed

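Total leukocyte RNA was measured on 19 one-colour Agilent whole mouse genome arrays of 18 RNA samples. The authors scanned the arrays and extracted spots with Agilent Feature Extraction 9.5.3.1 per the file headers, and deposited the processed signal intensity of each spot, corrected for background by that software. They also deposited a table of the processed signal averaged over the spots of each probe. Its log2 was used as an alternative. Here control spots and outlier spots were dropped, log2 of the intensity was taken, and each array was scaled by its 75th percentile among 11536 probes that every array detected well above background. Testing was limited to the 22939 of 41174 probes so detected in at least 2 samples, with limma 3.58.1 in R 4.3.3, 10 group means, 8 residual degrees of freedom and Benjamini-Hochberg adjustment at 0.05. Later strain differences are means over 2 w, 4 w and 9 w. The 8 w samples were left out of them because B6 8 w carries the liver pattern. On simulated intensities, 48 of 100 probes changed 2-fold and 68 of 100 changed 4-fold were recovered, with 8 false calls among 22939 probes. Only those probes were changed there, whereas 32.7% were called in the data. The simulated noise was independent between samples, whereas the correlation within slides was 0.39. These rates therefore do not carry over to the data.

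Gene names came from the RefSeq table by accession for 24367 probes, by symbol for 6307 and by synonym for 2425, and 8075 kept the file's name. Probe positions are those of the files (mm8). Of the 157 named genes 121 had a RefSeq promoter. Genes were named by rule: the 8 hepatocyte and 6 other liver-pattern genes with the largest differences toward B6, the 10 largest held and the 5 largest 0 w differences in each direction, all genes of the known loci, and up to 4 called genes of every other list, apart from a few genes not reported here. Members and gene lists were chosen with earlier results of these data known. No arrays but those of the labels' groups were used, and the number of arrays limits the precision. Replicate numbers are shared by the 0 w groups, but their deviations correlated by 0.049 over 2 pairs, so the samples were not treated as paired. Alternatives were another background correction, scaling, filter, floor and probe choice, a slide or replicate block, array weights, and leaving out samples.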

Additional observations from a re-analysis of the deposited data

Results flagged for a closer look

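The strain difference at 0 w departed from that over 2 w, 4 w and 9 w for 3332 probes by a limma test of the difference itself (Benjamini-Hochberg adjusted p under 0.05), and 89 of the named genes were among them. The values below are the difference DBA/2 minus B6 at 0 w minus the same at the later weeks, on the log2 scale, so that negative values lie more toward B6 at 0 w. Among hepatocyte genes they were Fabp1 −11.25, Rbp4 −8.91, Apoa2 −8.12, Alb −7.81, Uox −7.66, Fgg −7.64 and F2 −7.18. Other genes of the liver pattern gave Gsta3 −9.10, Mup1 −8.92, Serpina1d −8.17, Mup4 −7.78, Ces1c −7.40 and Mup6 −6.82. Acute phase genes gave Hpx −6.03, Saa3 −5.11, Orm1 −3.91 and Saa4 −2.93, complement genes Cfb −5.61, Cfi −5.49, C8g −5.05 and Hc −4.93, and genes of macrophages and stellate cells C1qc −3.58, Fcna −3.51, Clec4f −2.56 and Dcn −2.49.

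Of 21 type I interferon-stimulated genes 13 passed, each more toward B6 at 0 w, among them Oasl2 −2.04, Irf7 −1.62 and Isg15 −1.28, and the GTPases gave Iigp1 −2.31, Igtp −0.93, Gbp3 −0.67 and Tgtp1 −0.51. Cytotoxic genes gave Prf1 −1.05, Gzmb −0.98, Nkg7 −0.91 and Ctsw −0.78. Chemokine and receptor genes gave Cxcr6 −2.003, Cxcl9 −1.69, Cxcr3 −1.45 and Ccl5 −0.59. Among myeloid genes were Cd68 −1.34, Csf1r −1.07, Adgre1 −0.91, Lyz2 −0.69, Fcgr1 −1.31, Fcgr3 −0.73, Itgax −0.97 and Bst2 −0.95. Platelet genes gave Itga2b −1.31, Gp5 −1.02 and Itgb3 −0.61. Ly6 genes gave Ly6c1 −0.99, Ly6a −0.89 and Ly6d 0.75, T cell genes Zap70 −0.86 and Cd8b1 0.48, and MHC genes Tap1 −0.73, H2-Q1 −0.66, H2-Aa 0.53 and H2-DMb2 0.88.

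Named B cell and plasma cell genes more toward DBA/2 at 0 w were Cd22 0.59, Cd79b 0.89, Fcer2a 0.94, Vpreb3 0.98, Pou2af1 0.40 and Mzb1 0.91, while over the whole list of 7 plasma cell and immunoglobulin genes 2 passed in that direction and 1 in the other. Also in that direction were the ribosomal protein genes Rps18 0.34, Rpl10a 0.41 and Rps19 0.69, the erythroid gene Tfrc 1.63 (Bpgm −0.54), the granule gene Camp 1.88, and Slfn3 0.67, Ifi203 0.68 and the Y-linked Eif2s3y 0.50. Of the loci known to differ and the held genes, Glo1 gave −0.45, Gata2 −0.31, Mlycd −0.52 and Jhy 1.49. The genes called at 0 w and not later gave Akr1c14 −4.02, Ccl24 −3.68, Hsd3b5 −3.52, Efcab6 −3.22 and Cdc42ep1 −2.94 toward B6, and Pde4d 2.51, Chst1 2.63, Grhl2 2.65, Vstm2l 3.52 and Enam 5.46 toward DBA/2. B6 had 1 sample each at 2 w and 9 w. Without the 2 w sample 80 of the 89 kept the call, and Efcab6, Gata2, Gp5, H2-Aa, Itgb3, Rpl10a, Rps18, Slfn3 and Vpreb3 lost it, with the sign turned for Gata2 (0.099) and Itgb3 (0.19). Without the 9 w sample 74 kept it, and Akr1c14, Bpgm, Cdc42ep1, Efcab6, Enam, Glo1, H2-Aa, H2-Q1, Ifi203, Mlycd, Orm1, Pou2af1, Rps18, Saa4 and Slfn3 lost it.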

How the results depend on the processing

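Background correction, which with normexp included the offset of 50, and scaling mattered most. Beside the 7495 probes called at 0 w, normexp called 1182, of which 1173 were among the 7495. Log2 of the deposited table without scaling gave 14290. Later-week calls (7129) became 1533 and 12960, those of B6 8 w (5808) 1375 and 14139, or 3772 with no filter on dim probes, and those of the difference between the times (3332) 88 and 5064, or 1399 with no filter. Held probes (3733) became 693 with normexp, 0 w only probes (2882) 405, liver-pattern probes (531) 72 and, unscaled, 6438, and turned probes (340) 8 and 71, or 109 with no filter. A filter at 9 of 18 samples left 292 liver-pattern probes. The 4 samples of 0 w alone gave 3965 calls, and 4005 probes reached 2-fold without a test. With each 0 w group counted as 1 sample, 3505 were called at 0 w, 920 between the times, 2132 held, 114 turned and 870 at 0 w only. With only the B6 0 w replicates counted so, the times gave 1926, turned 217 and 0 w only 1646. The cause of these changes was not tested, apart from the smaller sample number. Leaving out 1 sample, chosen in part after seeing the data (the B6 2 w and 9 w samples), gave 2121 to 3172 between the times, 221 to 285 turned, 1738 to 3200 at 0 w only and 5413 to 7495 called at 0 w. The replicate block, pairing samples that share only a number, gave 8725, and slide as a random block 7554.

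Of 155 tested named genes, 61 kept both their side of the threshold and their direction under all 25 settings. Not all the others turned direction: with normexp, 60 were weaker without a change of sign and 11 turned sign. The filter at 9 of 18 samples left 121 of the named genes to test. Signs turned for Adgre1 (0.13), Ccl5 (0.023), Ccr9 (0.43), Cxcr3 (0.0043), Cxcr6 (0.058), Gbp2b (0.30), Gbp3 (0.25), Gp5 (0.098), Ifi209 (0.45), Igtp (0.16), Il7r (0.15), Itgax (0.045), Ly6k (0.18), Lyz2 (0.37), Mcm6 (0.0079) and Nnt (0.55) without scaling, and for Lyz2 (0.029) with quantile normalization. With normexp they turned for Aurkb (−0.45), Cpa3 (−0.053), Grhl2 (−0.094), Jun (−0.57), Lcn2 (−0.55), Mcpt8 (−0.20), Ngp (−0.0090), Siglecf (−0.39), Slfn3 (−0.27), Slfn8 (−0.35) and Vstm2l (−0.26), and with the mean of all probes for Ier2 (−0.15), Ifi203 (−1.39), Myo5a (0.11) and Nnt (0.039).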

Other observations

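Several lists were not described above. Over all 16525 tested genes, 2886 were higher in DBA/2 and 2674 in B6. A list whose counts lie near these shares does not stand out. Ribosomal protein genes leaned to DBA/2, with 7 of 19 higher in DBA/2 and 1 in B6 (median 0.22), and Rps19 differed by 1.10. With quantile normalization 17 of them were higher in DBA/2 and 0 in B6. Of 14 cell cycle genes 3 were higher in DBA/2 and 2 in B6 (median 0.38), with differences from −0.81 to 1.65. Mcm6 of this list was lower in DBA/2, and Aurkb, which was higher, turned sign with normexp (−0.45). Birc5, which cells need to complete division, was at 0.96 and 0.89 in DBA/2 and at −0.69 in both B6 samples, and Mki67, the proliferation antigen Ki-67, at 2.04 and 1.81 against 0.59 and 0.48, a difference of 1.39 at 0 w and 1.25 later. Of 14 immediate early genes 5 were higher in DBA/2 and 2 in B6 (median 0.41). Jund, a subunit of the AP-1 transcription factor, was at 3.94 and 4.00 in DBA/2 and 5.74 and 5.77 in B6 and differed by −1.79 at 0 w and −1.51 later. The 2 called probes of Ier2 went opposite ways, at 0.65 and −0.94. Over all genes with at least 2 called probes, 152 of 1005 (15.1%) had calls in both directions.

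Genes of basophils and eosinophils had 4 of 9 higher in DBA/2 and 0 in B6 (median 0.29), among them Cpa3, a mast cell and basophil protease, at 1.51 and Mcpt8 at 1.86. With normexp the signs of Cpa3 (−0.053), Mcpt8 (−0.20) and Siglecf (−0.39) turned. Of the 10 listed genes, 3 were well above background on all B6 0 w arrays and 7 on both DBA/2 arrays. Dendritic cell genes had 4 of 9 higher in B6 and 0 in DBA/2 (median −0.40), with Zbtb46, a transcription factor of conventional dendritic cells, at −1.95. Of 21 chemokine and receptor genes 5 were higher in B6 and 2 in DBA/2 (median −0.11), against 4 and 8 later. Cxcr6, a homing receptor of activated T cells, was at −0.45 and −0.56 in DBA/2 and at 0.28 and 0.24 in B6, and differed by −0.76 at 0 w and 1.24 later (2.10 without the B6 2 w sample). Of 7 Ly6 genes 3 were higher in B6 and 1 in DBA/2 (median −0.20, and 0.04 relative to all probes with normexp). Of 4 genes of bile duct and stellate cells 1, Dcn, was called, toward B6 at −1.83, while the median of the 4 was 0.58. The Y-linked Eif2s3y, which should be present in all of these male mice, was above background on every 0 w array and 0.67 higher in DBA/2.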
